A study of Mus musculus with 11 samples.

Results

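Autophagy and mitophagy core genes were followed through red cell development in the mouse fetal liver. The 10 genes, taken by symbol from the platform annotation, were Bnip3l, Ulk1, Atg4a, Atg4d, Atg3, Atg5, Atg7, Gabarapl2, Map1lc3b and Becn1 in a table where 18193 genes have a probe set that lists that gene alone; 9 of the 10 are among those, and Bnip3l shares its probe sets with a pseudogene. For each gene the probe set with the highest mean log2 signal over all 11 arrays was used. Livers of C57/Bl6 embryos at E14.5 were stained for Ter119, an erythroid antigen, and CD71, the transferrin receptor, and sorted into stages R1 to R5, which the labels call successive. All stages share strain, age and tissue, with no treatment or mutation, and the arrays numbered 2 for R1, 3 for R2, 3 for R3, 1 for R4 and 2 for R5. Whether replicate arrays stem from different litters or sorts is not stated, so the p-values cover only array-to-array spread, part of which may be technical.

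Autophagy encloses cytoplasm in a double membrane, the autophagosome, and delivers it to the lysosome. The kinase Ulk1 starts the process, and Becn1 is part of the lipid kinase complex that marks the membrane. Small ubiquitin-like proteins of the Atg8 family, among them Map1lc3b and Gabarapl2, are trimmed by Atg4 proteases and then joined to membrane lipid by Atg7, an activating enzyme, and Atg3, a conjugating enzyme, with the help of Atg5 bound to Atg12. Maturing red cells lose their mitochondria in this way, and Bnip3l, also called Nix, is the outer mitochondrial membrane receptor known for that clearance in reticulocytes.

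Upstream sequences are shown for the 4 genes tested as single genes with the largest rise between R2 and R3 and for Atg3, which had the largest fall, so that promoters of genes that moved in opposite directions can be read side by side. They are written 5′ to 3′ on the gene's strand and are the 250 bases before the transcript start from RefSeq on build GRCm38.p6, which held a start for 8 of the 10 genes and 2 starts for Atg4a. The starts of Ulk1, Atg4d, Atg5 and Atg7, and 1 of the 2 for Atg4a, lie inside the gene's span. Distances below are from these starts. Capitals mark matches, on either strand, to 4 motifs: AGATAA, which is GATA-type, TGTTTAC, which is Foxo-type, TCACGTG, which is CLEAR-type, and CAGCTG, which is an E-box. These letters occur in 9.99%, 3.17%, 3.13% and 13% of the 32851 promoter windows of the same length.
Atg4a, first start (chrX:140953595-140953844, forward strand): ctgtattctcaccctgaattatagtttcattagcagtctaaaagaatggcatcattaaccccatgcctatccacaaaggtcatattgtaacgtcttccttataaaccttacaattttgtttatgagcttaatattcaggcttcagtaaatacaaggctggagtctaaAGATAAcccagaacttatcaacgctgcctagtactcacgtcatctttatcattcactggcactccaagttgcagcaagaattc
Atg4a, other start (chrX:140956657-140956906, forward strand): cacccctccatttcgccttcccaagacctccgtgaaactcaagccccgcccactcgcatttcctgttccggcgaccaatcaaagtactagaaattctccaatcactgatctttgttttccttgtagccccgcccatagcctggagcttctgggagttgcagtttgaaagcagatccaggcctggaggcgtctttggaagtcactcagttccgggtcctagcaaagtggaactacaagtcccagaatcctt
Atg4d (chr9:21265035-21265284, forward strand): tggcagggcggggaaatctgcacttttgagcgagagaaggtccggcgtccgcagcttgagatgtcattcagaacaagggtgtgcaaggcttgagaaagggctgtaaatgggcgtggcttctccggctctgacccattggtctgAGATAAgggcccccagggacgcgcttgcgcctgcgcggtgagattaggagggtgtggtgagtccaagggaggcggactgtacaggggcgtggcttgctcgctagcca
Gabarapl2 (chr8:111940453-111940702, forward strand): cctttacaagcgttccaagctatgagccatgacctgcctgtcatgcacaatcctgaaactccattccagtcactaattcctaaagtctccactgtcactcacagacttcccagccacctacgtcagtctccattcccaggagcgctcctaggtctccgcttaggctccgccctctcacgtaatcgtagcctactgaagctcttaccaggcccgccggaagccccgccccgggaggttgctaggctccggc
Ulk1 (chr5:110810082-110810331, reverse strand): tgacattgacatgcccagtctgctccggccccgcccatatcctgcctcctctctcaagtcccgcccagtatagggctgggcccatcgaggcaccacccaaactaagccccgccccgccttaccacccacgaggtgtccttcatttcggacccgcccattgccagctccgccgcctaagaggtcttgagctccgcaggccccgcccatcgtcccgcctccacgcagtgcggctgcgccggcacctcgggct
Atg3 (chr16:45158579-45158828, forward strand): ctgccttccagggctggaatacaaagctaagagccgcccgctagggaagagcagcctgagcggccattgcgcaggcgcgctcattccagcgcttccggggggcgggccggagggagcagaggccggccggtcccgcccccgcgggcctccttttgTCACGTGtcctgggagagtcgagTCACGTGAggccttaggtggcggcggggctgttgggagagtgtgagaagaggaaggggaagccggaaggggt
The GATA-type letters stood once in the Atg4d window, 107 bases before the start, and once in 1 of the Atg4a windows, 83 bases before it. The CLEAR-type letters matched 3 times in the Atg3 window, starting 95, 72 and 71 bases before the start, and the last 2 matches overlap on opposite strands. The windows of Gabarapl2, Ulk1, Atg5 and the other Atg4a start held none of the 4 motifs. Atg7 had 1 CLEAR-type match and Map1lc3b 1 E-box match. A match is a description of letters, and no binding was measured.

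Each array carries 1 signal per probe set on a linear scale, deposited after MAS5, per the submitters' processing notes, and used here as log2. On all 11 arrays the signals of the 10 genes lay above the array's median, by 1.22 to 9.60 log2 units. Of 13100 genes tested with limma, 2716 differed between R3 and R2 at an adjusted p under 0.05, 2195 between R5 and R1, 61 between R2 and R1 and 1 between R5 and R3. Of the calls between R3 and R2, 1388 were higher and 1328 lower in R3, or 862 and 3103 with each array centred on its median. Between R5 and R1 they were 1334 and 861, or 933 and 3587 after that centring. A block on the replicate number gave 4197 calls between R3 and R2, 3735 between R5 and R1, 0 between R2 and R1 and 169 between R5 and R3; whether the numbers mark a shared extraction date across stages is not settled by the labels. Replicate arrays had a Pearson r between 0.83 and 0.91 across all probe sets, which are not independent replicates. Erythroid markers were higher in the later stages, and all 7 tested rose both in R3 against R2 and in R5 against R1. The summed intensity of 7 erythroid genes lay between 12068 and 16572 on R1 arrays, between 32230 and 60577 on R2 arrays, between 224361 and 232068 on R3 arrays, at 257156 on the R4 array and between 256201 and 375957 on R5 arrays. Hepatocyte markers moved with the same step, with a summed intensity of 64855 to 104011 in R3 and 3004 to 10524 in R2, and all 5 tested rose (at or above the array median were 5 of 5 in R3 and 4 of 5 in R2). Endothelial and stromal markers summed to 1018 to 2214 in R3 and 473 to 564 in R2 (2 of 6 called higher), and progenitor markers to 1851 to 4885 in R3 and 10985 to 16218 in R2 (2 of 4 called lower). Macrophage markers overlapped, at 4104 to 5245 in R3 and 2490 to 6166 in R2 (1 of 7 called higher), as did the summed granulocyte, lymphocyte, megakaryocyte and mast cell lists (0 called). The log2 signal at the 3′ end less that at the 5′ end of pyruvate carboxylase, a control probe set pair, was 2.45 to 3.29 in R3 and 0.75 to 1.84 in R2. For the actin control it was 0.24 to 0.83 in R3 and 0.32 to 0.79 in R2. For the Gapdh control it was -0.18 to -0.04 in R3 and -0.46 to -0.13 in R2. The part of these shifts in the results below was not tested. In sorted cell pools, fewer cells of a type and less RNA per cell cannot be told apart.

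R3 was compared with R2, successive stages between which more genes were called than between R2 and R1. Most of the 10 genes were higher in R3, while Atg3 and Atg5 were lower. Of the 9 genes tested singly, 6 rose (Ulk1, Atg4a, Atg4d, Gabarapl2, Map1lc3b and Becn1), 2 fell (Atg3 and Atg5) and Atg7 was not called. Over all genes tested 10.6% were called higher and 10.1% lower (limma, adjusted p under 0.05). The median log2 difference of the 9 genes was 1.89, against -0.14 for all genes. The R3 and R2 arrays were fully separate in 9 of 9, as they were for 49.9% of all genes. With the probe set of highest variance for each gene in place of the brightest, 3 genes were called, all higher. Atg7 was not tested in this setting, because that probe set was below the median on every array. This setting uses dimmer probe sets for several genes.

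**Figure D1:**
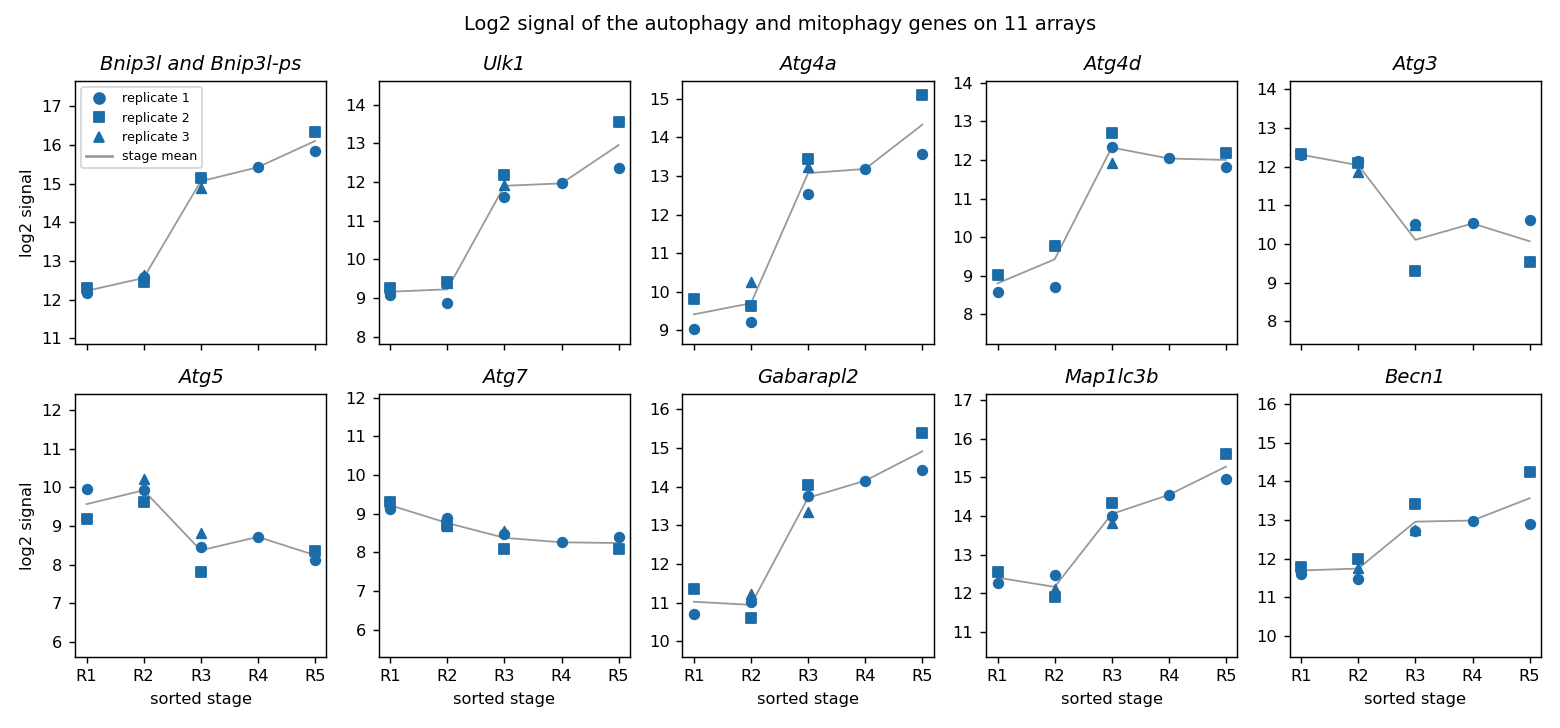
Log2 signal (y axis, each panel spanning the same width in log2 units) of the 10 genes on 11 arrays by sorted stage (x axis); symbols are replicates and the line joins stage means. Bnip3l, Ulk1, Atg4a, Atg4d, Gabarapl2, Map1lc3b and Becn1 step up between R2 and R3, and Atg3 and Atg5 step down.

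Bnip3l (chr14:66985238-67008877), the mitophagy receptor, had no probe set of its own: each of its 3 probe sets also lists the pseudogene Bnip3l-ps, so the signal may come from either. On the brightest of them the log2 signal was 12.16 and 12.29 in R1, 12.58, 12.46 and 12.64 in R2, 15.14, 15.15 and 14.89 in R3, 15.43 on the R4 array and 15.86 and 16.35 in R5. The R1 and R2 arrays lay close together, and every later array was over 2 units above them. R3 was 5.66-fold above R2, a log2 difference of 2.50 ± 0.23 (SE; 3 arrays each), with a limma adjusted p of 0.000389 in a fit over 28825 probe sets. In that fit 8.33% of probe sets were called higher in R3. R5 was 14.7-fold above R1 (log2 difference 3.88 ± 0.28; adjusted p = 9.83e-05). The other 2 probe sets listing the pair rose too in R3 against R2, by 1.93 ± 0.37 and 2.05 ± 0.42 (limma adjusted p = 0.00869 and 0.0115).

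Ulk1, the kinase that initiates autophagy, was at 9.07 and 9.25 in R1, 8.88, 9.42 and 9.37 in R2, 11.62, 12.18 and 11.91 in R3, 11.96 on the R4 array and 12.36 and 13.55 in R5. R1 and R2 arrays overlapped, and the 6 later arrays were all higher. R3 stood 6.41-fold above R2, with a log2 difference of 2.68 ± 0.34 (limma adjusted p = 0.00101), and R5 13.9-fold above R1 (3.80 ± 0.41; adjusted p = 0.000253). A further Ulk1 probe set also rose between R2 and R3, by 2.59, in the probe set fit (adjusted p = 0.0273).

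Becn1 (chr11:101288258-101302286), a subunit of the class III lipid kinase complex, changed less. Its log2 signal was 11.61 and 11.77 in R1, 11.48, 11.98 and 11.76 in R2, 12.73, 13.40 and 12.74 in R3, 12.99 on the R4 array and 12.89 and 14.23 in R5. The rise in R3 over R2 was 2.32-fold (log2 difference 1.21 ± 0.35; limma adjusted p = 0.0358). This call was lost when any 1 array of R1, R2 or R3 was left out, with adjusted p from 0.0503 to 0.136, and with each array centred on its median (adjusted p = 0.144). It was also lost without an intensity trend in the fit (limma adjusted p = 0.0641) and with the probe set of highest variance (0.852). None of the 4 further Becn1 probe sets was called, although all 4 differences were positive. R5 was 3.65-fold above R1 (1.87 ± 0.43; adjusted p = 0.0177), a call that was lost without replicate 1 of R1 (0.0926), replicate 2 of R1 (0.0646) or replicate 2 of R5 (0.112). It was lost too with median centring (0.0632), with only the arrays of these stages (0.0954) and with the probe set of highest variance (0.133).

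Both Atg4 proteases in the set, which trim Atg8 proteins before lipidation and release them from membranes afterwards, rose steeply in R3. Their relatives Atg4b and Atg4c, outside the set, were not called in R3 against R2. Those log2 differences were 0.72 ± 0.26 and -1.23 ± 0.44 (limma adjusted p = 0.069 and 0.0676). Atg4a, on chromosome X, was at 9.03 and 9.80 in R1, 9.22, 9.64 and 10.25 in R2, 12.53, 13.45 and 13.24 in R3, 13.18 on the R4 array and 13.57 and 15.08 in R5. The lowest R3 array was over 2 log2 units above the highest R2 array. Its R3 level was 10.3-fold that of R2 (log2 difference 3.37 ± 0.44; limma adjusted p = 0.00119), and its R5 level 30.1-fold that of R1 (4.91 ± 0.54; adjusted p = 0.000276). Among the 9 genes tested singly these were the largest differences in either comparison. A further, much dimmer Atg4a probe set rose by 1.79 ± 0.48 in R3 against R2 (limma adjusted p = 0.0317 in the probe set fit). In R5 against R1 that probe set differed by 1.60 ± 0.59 and was not called (adjusted p = 0.0864). Atg4d was at 8.58 and 9.03 in R1, 8.71, 9.77 and 9.80 in R2, 12.34, 12.70 and 11.92 in R3, 12.04 on the R4 array and 11.81 and 12.19 in R5. It rose 7.43-fold in R3 against R2 (2.89 ± 0.35; adjusted p = 0.000926). After R3 it was level, with R5 arrays inside or just below the range of R3. A further Atg4d probe set lay below the array median on every R1 and R2 array. It differed by 2.62 ± 0.83 in R3 against R2 and was not called (limma adjusted p = 0.0541 in the probe set fit). In R5 against R1 that probe set was called higher, by 4.25 ± 1.01 (adjusted p = 0.0214).

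The Atg8 family genes Gabarapl2 and Map1lc3b encode the ubiquitin-like proteins that coat the growing membrane and bind cargo receptors. Gabarapl2 was at 10.70 and 11.35 in R1, 11.01, 10.60 and 11.22 in R2, 13.76, 14.04 and 13.35 in R3, 14.16 on the R4 array and 14.43 and 15.40 in R5. Its R3 signal was 6.83-fold that of R2 (log2 difference 2.77 ± 0.33; limma adjusted p = 0.000883) and its R5 signal 14.8-fold that of R1 (3.89 ± 0.40; adjusted p = 0.000195). Map1lc3b (chr8:121590438-121598760), which encodes LC3B, was at 12.26 and 12.55 in R1, 12.46, 11.91 and 12.12 in R2, 14.01, 14.33 and 13.81 in R3, 14.55 on the R4 array and 14.95 and 15.60 in R5. It rose 3.70-fold in R3 against R2 (1.89 ± 0.27; adjusted p = 0.00182) and 7.32-fold in R5 against R1 (2.87 ± 0.33; adjusted p = 0.000332). For both genes no array of R1 or R2 reached any array of R3 to R5. The further Gabarapl2 probe set and 2 of the 3 further Map1lc3b probe sets were called higher in R3 against R2 as well, and the dimmest Map1lc3b probe set was not (log2 difference 1.00; adjusted p = 0.511).

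Atg3 and Atg5, which act in attaching Atg8 proteins to lipid, moved in the opposite direction. Atg3, the E2-like enzyme of that reaction, was at 12.30 and 12.32 in R1, 12.16, 12.09 and 11.88 in R2, 10.51, 9.31 and 10.50 in R3, 10.53 on the R4 array and 10.61 and 9.53 in R5. Every array of R3 to R5 was below every array of R1 and R2, and the arrays numbered 2 were the lowest in R3 and in R5. Between R2 and R3 it fell by 1.93 ± 0.38 on the log2 scale, or 3.82-fold (limma adjusted p = 0.0083). Between R1 and R5 it fell by 2.24 ± 0.46 (adjusted p = 0.0103), a call that was lost without replicate 1 of R1 (0.06), replicate 2 of R1 (0.0554) or replicate 2 of R5 (0.0853). A much dimmer Atg3 probe set differed by -0.37 between R3 and R2 and was not called (adjusted p = 0.817).

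Atg5 (chr10:44268322-44364299), whose product joins Atg12 and directs Atg3 to the membrane, was at 9.94 and 9.18 in R1, 9.93, 9.62 and 10.21 in R2, 8.46, 7.82 and 8.82 in R3, 8.72 on the R4 array and 8.13 and 8.36 in R5. It fell by 1.55 ± 0.35 on the log2 scale in R3 against R2, or 2.94-fold (limma adjusted p = 0.0149). The call was lost without replicate 1 of R2 (adjusted p = 0.0581) or replicate 2 of R3 (0.061). The other 2 Atg5 probe sets gave -1.89 (adjusted p = 0.00586) and -1.51 (0.0533) in the probe set fit. R5 against R1 differed by -1.32 ± 0.43 and was not called (adjusted p = 0.0585), but it was called with a block on the replicate number (0.0248), with median centring (0.018) or without replicate 2 of R3 (0.0458). R5 arrays did not overlap those of R1, as was so for 64.7% of all genes.

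Atg7 (chr6:114643127-114860604), the E1-like enzyme that activates both conjugation systems, was the gene whose probe sets disagreed. On its brightest probe set the signal was 9.13 and 9.31 in R1, 8.89, 8.71 and 8.68 in R2, 8.49, 8.09 and 8.55 in R3, 8.26 on the R4 array and 8.39 and 8.09 in R5. Neither R3 against R2 (log2 difference -0.38 ± 0.28; limma adjusted p = 0.324) nor R5 against R1 (-0.98 ± 0.35; adjusted p = 0.0726) was called. A second probe set read 7.29 and 7.88 in R1, 5.11, 6.18 and 6.87 in R2, 8.06, 8.34 and 8.36 in R3, 8.32 on the R4 array and 8.62 and 8.20 in R5. On that probe set R3 was higher than R2 by 2.20 ± 0.46 (adjusted p = 0.0129 in the probe set fit), so no direction is given for Atg7. Of the 18 further probe sets of the 10 genes that passed the filter on dim signals, this was the only one opposite in sign to the brightest probe set. Of the 17 with the same sign 8 were called in R3 against R2, where 15.4% of the 28825 probe sets were. These 17 read the same genes on the same arrays, so they are not separate observations.

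**Figure D2:**
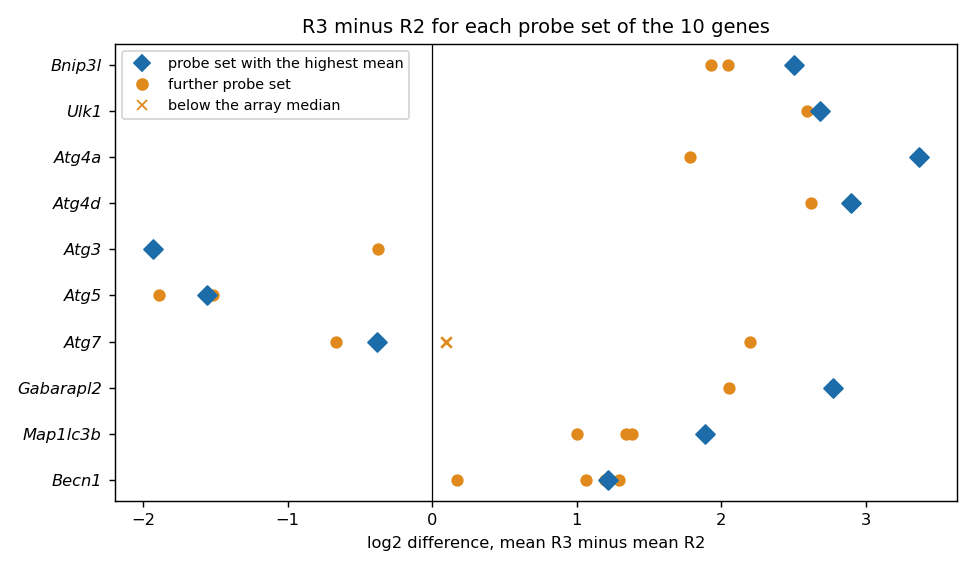
Log2 difference between mean R3 and mean R2 (x axis) for all 29 probe sets of the 10 genes (y axis); diamonds are the probe sets used, circles further ones, and the cross 1 that stayed below the array median. One Atg7 circle lies at 2.20, opposite in sign to its diamond at -0.38.

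R2 was compared with R1 to see whether these genes moved at the first step. None of the 9 was called (limma), and 0 had an unadjusted p under 0.05, where the shares over all genes were 0.466% called (0.351% higher, 0.115% lower) and 13.4% at that unadjusted p. Their log2 differences ran between -0.46 ± 0.32 for Atg7 and 0.62 ± 0.40 for Atg4d, and the Bnip3l probe set differed by 0.33 ± 0.26 (adjusted p = 0.76). Arrays of R2 and R1 did not overlap for Atg3 and Atg7 among the 9, against 36.3% of all genes.

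R5 was compared with R3 to ask whether levels went on changing at later stages. Means of Ulk1, Atg4a, Gabarapl2 and Map1lc3b were 2.08, 2.38, 2.30 and 2.34 times as high in R5 as in R3, and the R5 arrays of these 4 genes lay above all R3 arrays. Their log2 differences were 1.05 ± 0.38, 1.25 ± 0.49, 1.20 ± 0.37 and 1.23 ± 0.30 (SE; 2 R5 and 3 R3 arrays), and none passed the test (limma adjusted p = 0.19, 0.221, 0.147 and 0.098). Without overlap were 36.4% of all genes, and 0.00763% of all genes were called. Of the 9 genes, 4 had an unadjusted p under 0.05, against 19% of all genes. The Bnip3l probe set differed by 1.04 ± 0.26 (adjusted p = 0.13), and Becn1 by 0.61 ± 0.39 with overlapping arrays. Atg4d, Atg3, Atg5 and Atg7 differed by -0.32 to -0.04, each less than its SE.

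The R5 arrays were far apart. Replicate 2 of R5 was the higher one for 8 of the 10 genes, with a median deviation of 0.29 from the stage mean, where the median over all tested genes was -0.17. Replicate 2 was also the higher array of R1 for 9 of the 10 and the highest of R3 for 7, but the highest of R2 for 2. Without replicate 1 of R5, the log2 differences between R5 and R3 were 1.65 for Ulk1, 2.01 for Atg4a, 1.68 for Gabarapl2 and 1.55 for Map1lc3b. The Bnip3l probe set then differed by 1.29. Without replicate 2 of R5, the log2 differences were 0.46 for Ulk1, 0.50 for Atg4a, 0.72 for Gabarapl2 and 0.90 for Map1lc3b. The Bnip3l probe set then differed by 0.80. Each of these settings leaves 1 R5 array, so only the sizes are given here. The single R4 array was inside the joint range of the R3 and R5 arrays for 10 of the 10 genes and inside the range of R3 alone for 6.

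**Figure D3:**
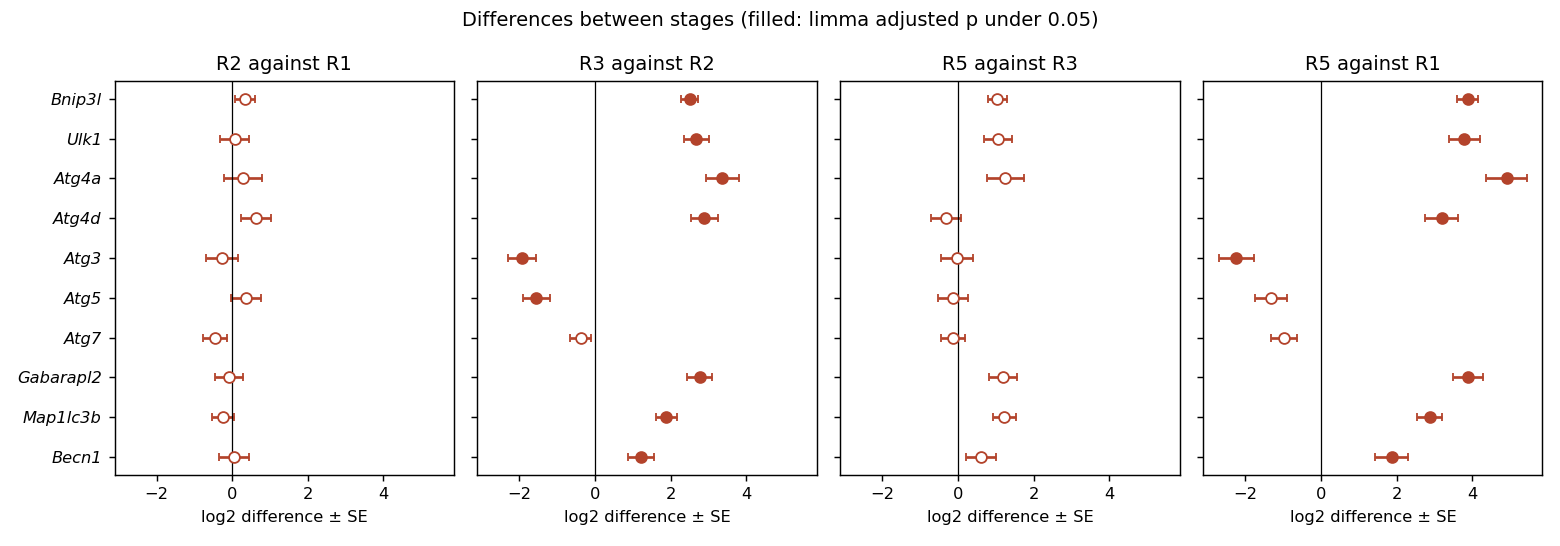
Log2 difference with its SE (x axis) of the 10 genes (y axis) in 4 comparisons; filled points have a limma adjusted p under 0.05. Filled points appear in R3 against R2 and in R5 against R1 and in neither of the other panels.

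Over the whole span, R5 against R1, 6 of the 9 genes rose (Ulk1, Atg4a, Atg4d, Gabarapl2, Map1lc3b and Becn1), Atg3 fell and Atg5 and Atg7 were not called, where 10.2% of all genes were called higher and 6.57% lower. The median log2 difference was 2.87 for the 9 genes and -0.31 for all genes. Atg4d rose 9.14-fold (log2 difference 3.19 ± 0.43; limma adjusted p = 0.000886). With each array centred on its median 5 rose and 3 fell: Becn1 was not called, and Atg5 (adjusted p = 0.018) and Atg7 (0.0173) were called lower. After that centring falls were common over all 13100 genes too, of which 933 rose and 3587 fell. With the probe set of highest variance 4 genes were called, Atg7 was not tested, and Map1lc3b then differed by -0.31. Hepatocyte markers summed to 77455 to 219182 in R5 and 12954 to 17875 in R1, with all 5 called higher, and the pyruvate carboxylase 3′ less 5′ log2 signal was 2.27 to 4.62 in R5 and 0.20 to 0.38 in R1. For actin it was 0.43 to 0.44 in R5 and 0.25 to 0.35 in R1, and for Gapdh 0.20 to 0.23 and -0.46 to -0.01. Endothelial and stromal markers summed to 2829 to 4268 in R5 and 1005 to 1572 in R1 (1 of 6 called higher), and progenitor markers to 4021 to 13264 in R5 and 16585 to 22635 in R1 (1 of 4 called lower). Macrophage sums were lower in R5, at 6102 to 8955 against 10298 to 13553 in R1 (0 of 7 called). Lymphocyte sums were lower, at 3272 to 3708 against 5097 to 18111 (1 of 5 called lower). Mast cell sums were lower, at 868 to 6255 against 7034 to 7276 (0 of 4 called). Granulocyte sums were higher, at 201020 to 201321 against 150569 to 174195 (0 of 8 called). Megakaryocyte sums overlapped (1 of 6 called higher). The part of all these shifts in the result was not tested. This comparison and the 2 steps between R2 and R1 and between R5 and R3 share arrays, so they are not independent of each other. By the F-test over R1, R2, R3 and R5, 8 of the 9 genes differed (adjusted p from 0.000119 for Gabarapl2 to 0.0149 for Atg5) and Atg7 did not pass (0.103), where 36.9% of all genes did.

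In the authors' deposited table, which sets each stage against R2, the log2 difference of R3 was 3.37 for Atg4a with a p-value of 0.0226, 2.89 for Atg4d with 0.0209, 2.77 for Gabarapl2 with 0.0211, 2.68 for Ulk1 with 0.0222 and 1.89 for Map1lc3b with 0.0405. For the Bnip3l probe set it was 2.50 with 0.0169. The authors' deposited table gave p-values of 0.0658 for Atg3, 0.0812 for Atg5 and 0.15 for Becn1 in the same comparison, so these 3 did not reach 0.05 there. The column headings do not say whether those p-values were adjusted. They may therefore not be of the same kind as the adjusted p-values given here.

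Other genes of the pathway were split by role. Of 58 further autophagy genes 55 were tested, and between R3 and R2 13 of them rose and 6 fell, with a median log2 difference of 0.46, against -0.14 for all genes. These are 23.6% and 10.9% of the list, where 10.6% of all genes were called higher and 10.1% lower, so the share of falls was near that of all genes. Among 12 genes grouped as cargo and mitophagy receptors, a group that also holds the kinase gene Pink1, 5 rose and 0 fell. Ncoa4, the receptor that delivers ferritin to the autophagosome, was at 14.56, 15.07 and 15.08 in R3 and 12.36, 12.89 and 12.42 in R2, a log2 difference of 2.35 ± 0.31 (limma adjusted p = 0.00119). Calcoco1, a receptor for endoplasmic reticulum, was at 8.66, 9.79 and 7.94 in R3 and 6.59, 6.40 and 6.10 in R2 (2.43 ± 0.54; adjusted p = 0.0137, or 0.0556 without replicate 2 of R3). Nbr1, Tax1bp1 and Pink1, the kinase that marks damaged mitochondria, rose by 2.13, 1.40 and 1.47. The mitophagy receptor genes Bnip3, a relative of Bnip3l, and Fundc1 were not called, with log2 differences of 0.50 ± 0.48 and -1.17 ± 0.40 (adjusted p = 0.445 and 0.0606).

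Of the 10 tested upstream regulators 1 rose, a share near the 10.6% of all genes. This was Foxo3, a transcription factor known to drive autophagy genes in muscle. Foxo3 was at 14.18, 14.42 and 14.11 in R3 and 10.83, 10.97 and 11.44 in R2, a log2 difference of 3.16 ± 0.27 (limma adjusted p = 0.000222). The lysosomal regulators Tfeb and Tfe3 were not called, with log2 differences of 0.62 ± 0.47 and -0.0004 ± 0.33. In the Atg8 family Map1lc3a rose by 2.17 ± 0.54 and Gabarap by 1.32 ± 0.27, while Gabarapl1 was not called (-0.35 ± 0.40). The Map1lc3a call was lost without replicate 1 of R2 or of R3 (adjusted p = 0.0707 and 0.0662).

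The 6 falls, whose share was near that of all genes, came from 4 of the 8 roles. In the lipid kinase complex 3 of 7 genes fell and 0 rose, with Rubcn, an inhibitor of that kinase, at 5.80, 5.37 and 6.31 in R3 and 7.92, 7.70 and 7.70 in R2 (log2 difference -1.95 ± 0.46; limma adjusted p = 0.018; the signal was below the array median on 2 of the 3 R3 arrays), and Pik3c3, its catalytic subunit, at -1.02 ± 0.31. Atg10, the E2-like enzyme for Atg12, fell by 1.67 ± 0.47, Atg101 of the Ulk1 complex by 1.36 ± 0.38 and the lipid transfer gene Atg2b by 1.08 ± 0.34. On the R3 arrays Atg10 was at 6.45, 4.96 and 6.60, near or below the array medians of 6.45, 6.18 and 6.26. All 4 of Rubcn, Atg10, Atg101 and Atg2b lost their call without replicate 1 of R2, without replicate 2 of R2 or without replicate 2 of R3 (adjusted p from 0.0559 to 0.124), Atg101 also without replicate 1 of R3 (0.0686), and Atg2b without any other single array of R1, R2 or R3. Counts of called genes of this list were 7 without replicate 1 of R2, 9 without replicate 2 of R2, 10 without replicate 1 of R3 and 7 without replicate 2 of R3, with 0 falls in the first, the second and the last. With each array centred on its median 8 of the 55 rose and 12 fell, while of all 13100 genes 862 rose and 3103 fell.

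**Figure D4:**
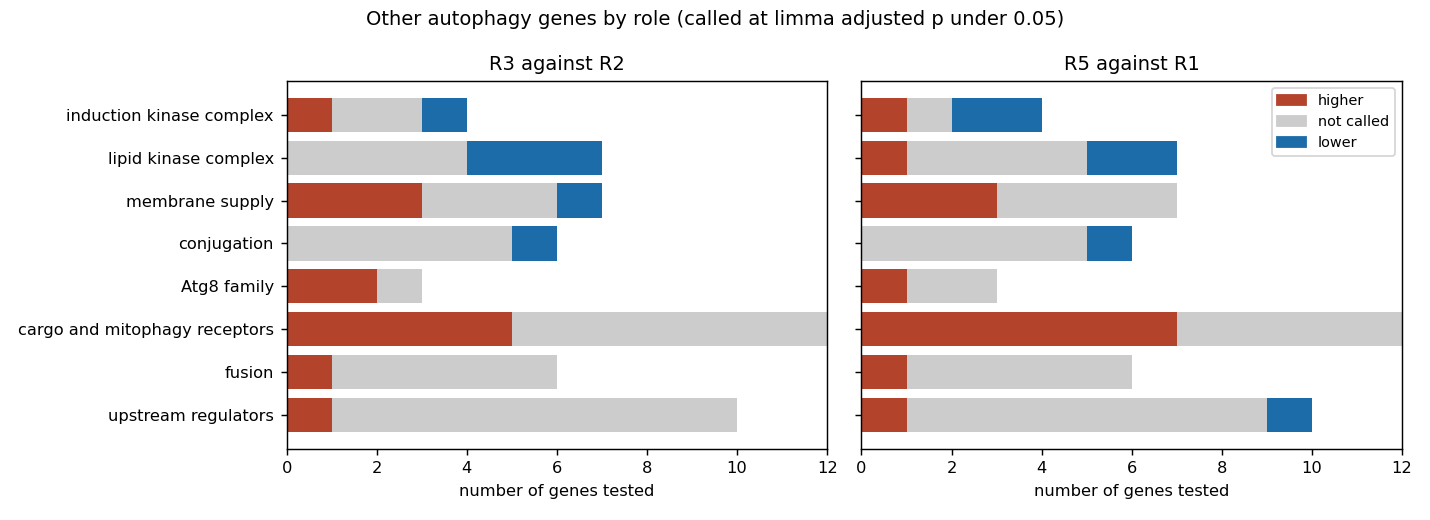
Number of other autophagy genes tested (x axis) by role (y axis) that were called higher, not called or called lower in R3 against R2 and in R5 against R1 (limma adjusted p under 0.05). The group of cargo and mitophagy receptors, which also holds the kinase gene Pink1, has 5 and 7 higher calls and no lower ones.

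In R5 against R1, 15 of the 55 rose and 6 fell, which is 27.3% and 10.9% of the list, against 10.2% and 6.57% of all genes. Foxo3 rose by 4.47 ± 0.33, Calcoco1 by 3.78 ± 0.66, Nbr1, a receptor for ubiquitinated cargo, by 2.79 ± 0.45 and Ncoa4 by 2.69 ± 0.38 (limma adjusted p from 8.37e-05 to 0.00428). Among the falls were Atg101 (-2.34 ± 0.47), Ulk2, a relative of Ulk1 (-1.90 ± 0.50), and Pik3c3 (-1.51 ± 0.38). On replicate 1 of R5 Atg101 was at 6.81, below the array median of 6.91. Atg16l2 was called lower too (adjusted p = 0.0437), at 3.17 and 4.60 in R5 and 7.51 and 9.11 in R1, but with both R5 values below the array medians of 6.91 and 6.75 the size of its fall was not measured. The count of 21 became 7 if replicate 1 of R1 was left out, 9 if replicate 2 of R1 was, 7 if replicate 2 of R5 was, and 6 with only the arrays of these stages. Atg101 lost its call without replicate 1 of R1 (adjusted p = 0.0544), Ulk2 without either R1 array or replicate 2 of R5 (0.0803 to 0.18), Pik3c3 without replicate 2 of R1 or of R5 (0.131 and 0.146), and Atg16l2 on leaving out any 1 of both R1 arrays, both R5 arrays, replicates 1 and 2 of R2 and replicate 3 of R3 (0.0582 to 0.184). With each array centred on its median 10 of the 55 rose and 14 fell, while of all 13100 genes 933 rose and 3587 fell. In R2 against R1 and in R5 against R3, 0 of the 55 were called (limma), and 5 and 11 had an unadjusted p under 0.05, which is 9.09% and 20% of the list, against 13.4% and 19% of all genes.

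Likeness of pattern was measured as the root mean square difference of log2 signal over 11 arrays, with each gene centred on its own mean. The 5 tested genes nearest to the Bnip3l probe set were 1810058I24Rik (0.16 log2 units), Rbm38, an RNA-binding protein gene (0.21), the amino acid transporter gene Slc16a10 (0.23), the mitochondrial carrier gene Slc25a39 (0.24) and the adaptor gene Shb (0.24). Within the set, Gabarapl2 and Ulk1 were nearest to it, at 0.26 and 0.27, and Atg3 farthest, at 2.58. Nearest to Atg3 were Pwp1 (0.20), Lrrc58 (0.22), the lipid kinase gene Dgkz (0.22), Zfp277 (0.22) and Cdca7 (0.22), and within the set Atg5 (0.53) and Atg7 (0.74). These are descriptions over arrays that share stages, and say nothing of shared control.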

How the data were processed

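Expression was measured on 11 arrays of sorted fetal liver cells. The authors deposited 1 intensity per probe set and array for 45101 probe sets, 64 of them controls; MAS5 and limma are named, with no version, by the submitters' processing notes. The mean intensity after trimming 2% at each end was 500 on each array. The authors also deposited mean log2 signals per stage, log2 differences from R2 (headed ratios) and p-values, per the file headers. Here intensities were taken to log2 with no further normalization. Of the other probe sets 34945 listed 1 gene, 932 several and 9160 none; only the first were named and tested as genes, so Bnip3l was tested in a second fit over 28825 probe sets, chosen after seeing the data. Per gene the probe set with the highest mean was kept if at or above the array median on at least 2 arrays (13100 genes). limma 3.58.1 in R 4.3.3 (lmFit with a mean per stage, eBayes with an intensity trend, 6 residual and 4.83 prior degrees of freedom) used all 11 arrays, with Benjamini-Hochberg adjustment over all genes and a threshold of 0.05; R4, with 1 array, takes its spread from the other stages. The number of arrays limits the precision. The fit was tested on simulated data. Members, lists, motifs and alternatives were chosen with earlier results of these data known. The text names all 10 genes, and of the other pathway genes up to the 4 largest called rises and falls per comparison. Nbr1, Tax1bp1, Pink1, Bnip3, Fundc1, Tfeb, Tfe3, Gabarap, Gabarapl1, Atg4b, Atg4c and Pik3c3 in R3 against R2 were named after their values were seen. Alternatives were other scalings, offsets, filters, probe sets, fits, a replicate block and each array left out. Promoter sequences and gene positions are from RefSeq (GRCm38.p6).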

Additional observations from a re-analysis of the deposited data

How the results depend on the processing

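The 17 called differences of the 10 genes in R3 against R2 and R5 against R1 were recomputed under 336 alternative values: 307 kept direction and call, 28 kept direction but lost the call, and 1 changed sign, Map1lc3b in R5 against R1 (-0.31) with the probe set of highest variance. That setting gave 3 called genes in R3 against R2, 4 in R5 against R1 and 5 by the F-test, with Atg7 not tested. Among the 336 values, many come from settings that return the same log2 difference. Examples are another filter, eBayes without an intensity trend, or leaving out arrays of stages not compared. In those settings only the call could change, so a kept direction there carries no information. With arrays left out in turn, called genes of the 9 numbered 0 in R2 against R1, 6 to 8 in R3 against R2, 0 to 3 in R5 against R3 (3 without replicate 1 of R5), 5 to 8 in R5 against R1 and 8 by the F-test. Other pathway genes called ranged from 7 to 26 in both R3 against R2 and R5 against R1, and were 6 in R5 against R1 with only the arrays of these stages.

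Over all genes the calls with arrays left out ranged from 0 to 87 in R2 against R1, 843 to 3932 in R3 against R2 (843 and 1097 without replicate 1 or 2 of R2, 1518 and 855 without replicate 1 or 2 of R3), 0 to 643 in R5 against R3 and 634 to 4360 in R5 against R1 (757 and 946 without replicate 1 or 2 of R1, 4360 and 634 without replicate 1 or 2 of R5). In R2 against R1 the main count of 61 became 15 and 0 without replicate 1 or 2 of R1, 11 without replicate 1 of R2 and 0 without any other array of R2 or R3. It was 0 with default eBayes or with only these stages, 100 (84 higher) with median centring and 29 with the probe set of highest variance. In R5 against R3 the main count of 1 became 0 with default eBayes, with only these stages, without the filter, or without any 1 array but replicate 1 of R5; it was 14 with quantile normalization, 588 with median centring, 47 with an offset of 16 and 78 with the filter at 5 arrays. In R5 against R1 the main count of 2195 became 4520 with median centring and 700 with only these stages. Median centring moved the median of all genes by 0.35, -0.40, -0.54 and -0.59 in R2 against R1, R3 against R2, R5 against R3 and R5 against R1, and quantile normalization by 0.12 and -0.18 in R2 against R1 and R5 against R3.

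Arrays of different stages share replicate numbers. Deviations from stage means correlated at -0.15 to 0.40 over the 13 same-numbered pairs, 10 of them above 0.1, and 8 of 10 arrays correlated best with their own number, a hint of pairing from the data. In R1 and R5, with 2 arrays each, the deviations are mirror images. These pairs are thus not separate observations, and the counts overstate the hint. The labels say that a set of replicates had 1 extraction date, without saying whether a set is 1 number across stages or the replicates of 1 stage, and not every pair passed 0.1, so the main fit has no block and both fits are given. With the replicate block, 8 of the 9 genes were called in R3 against R2 and 8 in R5 against R1 (Atg5 with an adjusted p of 0.0248), 0 in the other comparisons, and over all genes 0 in R2 against R1, 4197 in R3 against R2, 169 in R5 against R3 and 3735 in R5 against R1.

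Small differences that were not called changed sign in 25 alternative values. In R2 against R1 median centring gave 0.084 for Atg3, 0.27 for Gabarapl2 and 0.11 for Map1lc3b, and Becn1 was at -0.029 with quantile normalization and -0.030 with the probe set of highest variance. With arrays left out Ulk1 ranged from -0.034 to 0.24, Atg4a from -0.098 to 0.68, Atg5 from -0.022 to 0.74, Gabarapl2 from -0.40 to 0.24 and Becn1 from -0.070 to 0.18. In R5 against R3 the probe set of highest variance gave 0.22 for Atg4d and -0.24 for Map1lc3b, quantile normalization 0.10 for Atg3, and the block 0.021 for Atg3 and 0.061 for Atg5. With arrays left out Atg3 ranged from -0.57 to 0.50, Atg5 from -0.40 to 0.10, Atg7 from -0.28 to 0.014 and Becn1 from -0.067 to 1.28. The causes of these changes were not tested.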
